A study of Drosophila melanogaster with 40 samples.

Results

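The genes described here are 10 members of the CheB and CheA families of chemosensory proteins: 8 CheB genes (CheB38a, CheB38b, CheB38c, CheB42a, CheB42b, CheB42c, CheB93a and CheB93b) and 2 CheA genes (CheA29a and CheA75a). They were chosen by name from the 23932 features of a read count table of legs from male Drosophila melanogaster. The choice used no rule on measured values, but it was made with earlier results of these data known. The table holds 20 genes of both families, 12 CheB and 8 CheA genes, so 10 further family members served for comparison. Legs were profiled in 40 libraries of polyadenylated RNA. Each library came from 1 pool of 15 flies, and each of 10 groups had 4 pools. The Hsp70- strain (w1118; Df(3R)Hsp70A, Df(3R)Hsp70B) lacks 6 Hsp70 genes, and it was set against w1118. Per the series' design text the strains came from different stock centres, so other differences between their genomes cannot be told apart from the deletions. Untreated Hsp70- and w1118 males were taken at 7, 23 and 47 days after eclosion. Exercised males of both strains were taken at day 7, right after 2 h of exercise. Trained males of both strains were taken at day 23, after 19 days in tubes turned every 15 s and 24 h after the last session. The p-values measure the spread between pools of 1 strain and condition.

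CheA and CheB proteins are small secreted proteins of taste hairs. Several were first found as transcripts of the male front leg, where taste hairs touch the female during courtship and detect contact pheromones. CheB proteins resemble the GM2 activator protein, a mammalian lipid carrier, and loss of CheB42a alters the timing of courtship in male flies. The DEG/ENaC channel subunits ppk23, ppk25 and ppk29 act in pheromone-sensing taste neurons of the same legs. Legs hold mostly muscle and cuticle, so these genes report on a small part of the tissue, and fewer cells of a type cannot be told apart from less RNA per cell.

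A library held between 21955858 and 29215993 counts at day 7, between 22329878 and 30076080 at day 23, and between 35144736 and 39313671 at day 47, so day 47 was deeper than any library of the other ages. The 5 deleted Hsp70 genes other than Hsp70Bb had 11 counts in the 20 Hsp70- libraries together, against 1748 in the 20 w1118 libraries, while Hsp70Bb had 1283 counts in Hsp70- and 1149 in w1118. These 5 genes separated the labels in every library, with 0 to 2 counts in Hsp70- and 14 to 366 in w1118. The reads of Hsp70Bb were not traced further. Markers of testis, accessory gland or eye stood out in 8 libraries, called below the 8 libraries with markers of other organs. Gut markers were not used to leave libraries out, although their sum ran from 72.5 to 28800 CPM. Summed testis markers lay over 10 times the median in Hsp70- day 7 replicate 2, exercised w1118 replicate 1 and trained w1118 replicate 1. Summed accessory gland markers over 1000 CPM or eye markers over 3000 CPM were found in Hsp70- day 7 replicate 4, exercised Hsp70- replicate 1, trained Hsp70- replicates 1 and 2, and exercised w1118 replicate 3. CPM are counts divided by a library's total and multiplied by 1000000; the total is scaled for gene levels and unscaled for marker sums.

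Most of the 10 genes lie in tight clusters. Coordinates are those of Ensembl BDGP6.54. On chromosome 2L, CheB38b (20816456 to 20817270), CheB38a (20817815 to 20818532) and CheB38c (20820089 to 20820867) follow each other on the minus strand, with 544 bases between CheB38b and CheB38a and 1556 between CheB38a and CheB38c. On 2R, CheB42b (6943096 to 6943995) lies 618 bases from CheB42c (6944614 to 6971637), both on the minus strand. CheB42a (6949482 to 6950284, plus strand) lies inside an intron of CheB42c, and ppk25 starts 100 bases downstream of it on the same strand. On 3R, CheB93a (21407445 to 21408324) and CheB93b (21409123 to 21409924) are 798 bases apart on the plus strand and 8.9 Mb from the nearest deleted Hsp70 gene. CheA29a (2L, 8477349 to 8478088) and CheA75a (3L, 18252088 to 18252846) stand alone. CheA29a lies within the span of dachs and shares 0 exonic bases with it.

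The gene models share a plan. Of the 12 CheB genes, 10 have 3 exons, and in 9 of those the middle exon is 177 bases long, against 171 in CheB98a. The fourth of the 5 exons of CheB42c also has 177 bases, and all 8 CheA genes have 2 exons. The exonic length was 595 to 751 bases in the 9 members other than CheB42c. CheB42c spans 1649 exonic bases, of which 961 (58.3%) are shared with mim on the same strand. Reads in that stretch cannot be assigned to 1 of these genes, so the level of CheB42c is uncertain. Over the 40 libraries mim had 82.9 to 141 CPM, with means of 111 CPM in Hsp70- and 111 CPM in w1118.

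All 10 genes were detected in each of the 40 libraries, with 173 counts (CheA29a) to 17175 counts (CheA75a), and all 10 passed the filter on low counts. CheA75a was the most abundant, with a median of 399 reads per kilobase of exon and 1000000 reads (RPKM), at rank 230 of 12893 genes. CheB38b followed with 146 RPKM, CheB42a with 115 RPKM and CheB93a with 91.8 RPKM. CheB42b (78.2 RPKM) and CheB42c (77.8 RPKM) were each above the other in 20 of 40 libraries, and their order differed by strain. In w1118 CheB42c was above CheB42b in 16 of 20 libraries (medians 65.1 and 63.5 RPKM). In Hsp70- the median was 87.9 RPKM for CheB42b and 83.6 RPKM for CheB42c. On its 688 bases outside mim CheB42c would reach 186 RPKM if all its reads fell there. CheB38c (64.2 RPKM) exceeded CheB93b (55.2 RPKM) in 21 of 40 libraries, and CheB93b exceeded CheB38a (44.4 RPKM) in 26. CheA29a was the least abundant in every library, with a median of 18.2 RPKM. The order differed between strains: CheB93a held rank 3 in Hsp70- (136 RPKM) and rank 6 in w1118 (57.7 RPKM). CheB93b held rank 6 in Hsp70- and rank 9 in w1118, and CheB42c rank 7 in Hsp70- and rank 4 in w1118.

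**Figure D1:**
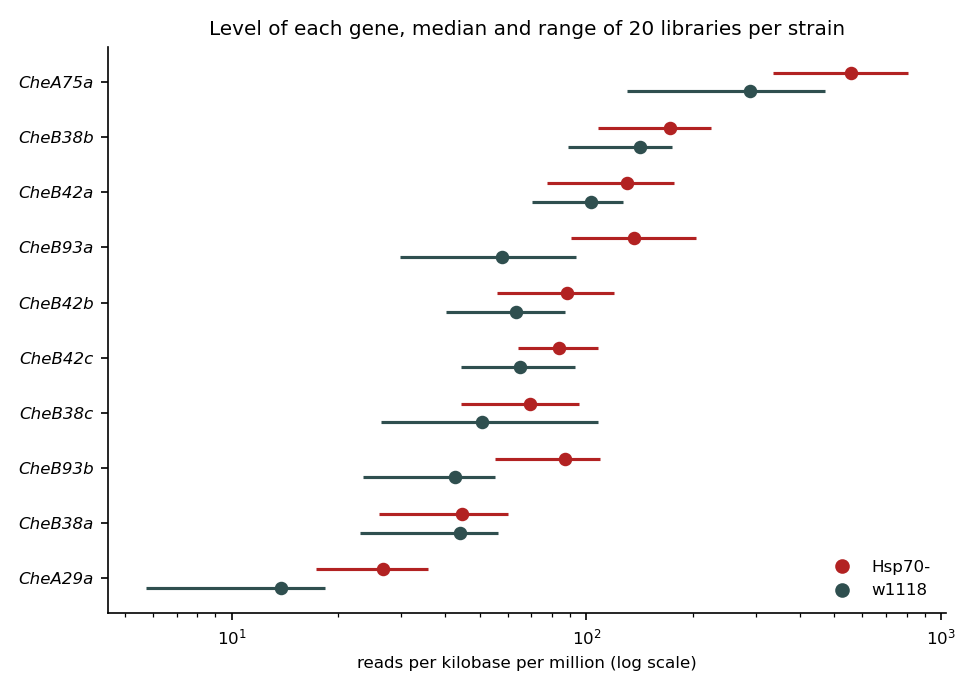
Level of each gene in RPKM, on a log scale. Points are medians and lines run from the lowest to the highest of 20 libraries per strain (Hsp70- above w1118). CheA75a is highest in both strains, and the strains are furthest apart for CheB93a, CheB93b, CheA29a and CheA75a.

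The strain comparison asked which of these transcripts differ between legs of the Hsp70- strain and of w1118. CheB93a, CheB93b, CheA29a and CheA75a were higher in Hsp70- legs in all 5 conditions, with log2 fold changes of 0.65 to 1.45. The 3 CheB42 genes were higher by less, and the CheB38 genes least of all, with CheB38a at a log2 fold change of -0.03 averaged over the conditions. A call is an adjusted p under 0.05 in edgeR's quasi-likelihood test with Benjamini-Hochberg adjustment over 12939 features. At day 7, 6 of the 10 genes were called, all higher in Hsp70-, where 25.8% of all features were called and 15.8% were called higher. At day 23 it was 4 (17.8% of all features, 8.78% higher), at day 47 it was 6 (19.4%, 9.93% higher), in exercised flies 4 (20.2%, 8.95% higher) and in trained flies 5 (15.6%, 8.41% higher). The number called lower was 0 in each of the 5. Without overlap, 6 genes lay higher in Hsp70- at day 7 (10.5% of all features), 3 at day 23 (9.38%), 6 at day 47 (13.2%), 5 in exercised flies (10.2%) and 7 in trained flies (8.08%). The 4 genes called higher in all 5 conditions compare with 3.39% of all features. Over the mean of the 5 conditions, 9 of 10 were called higher (41.8% of all features were called, 21.1% higher). The median log2 fold change of the 10 genes was 0.39, against -0.01 over all features.

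**Figure D2:**
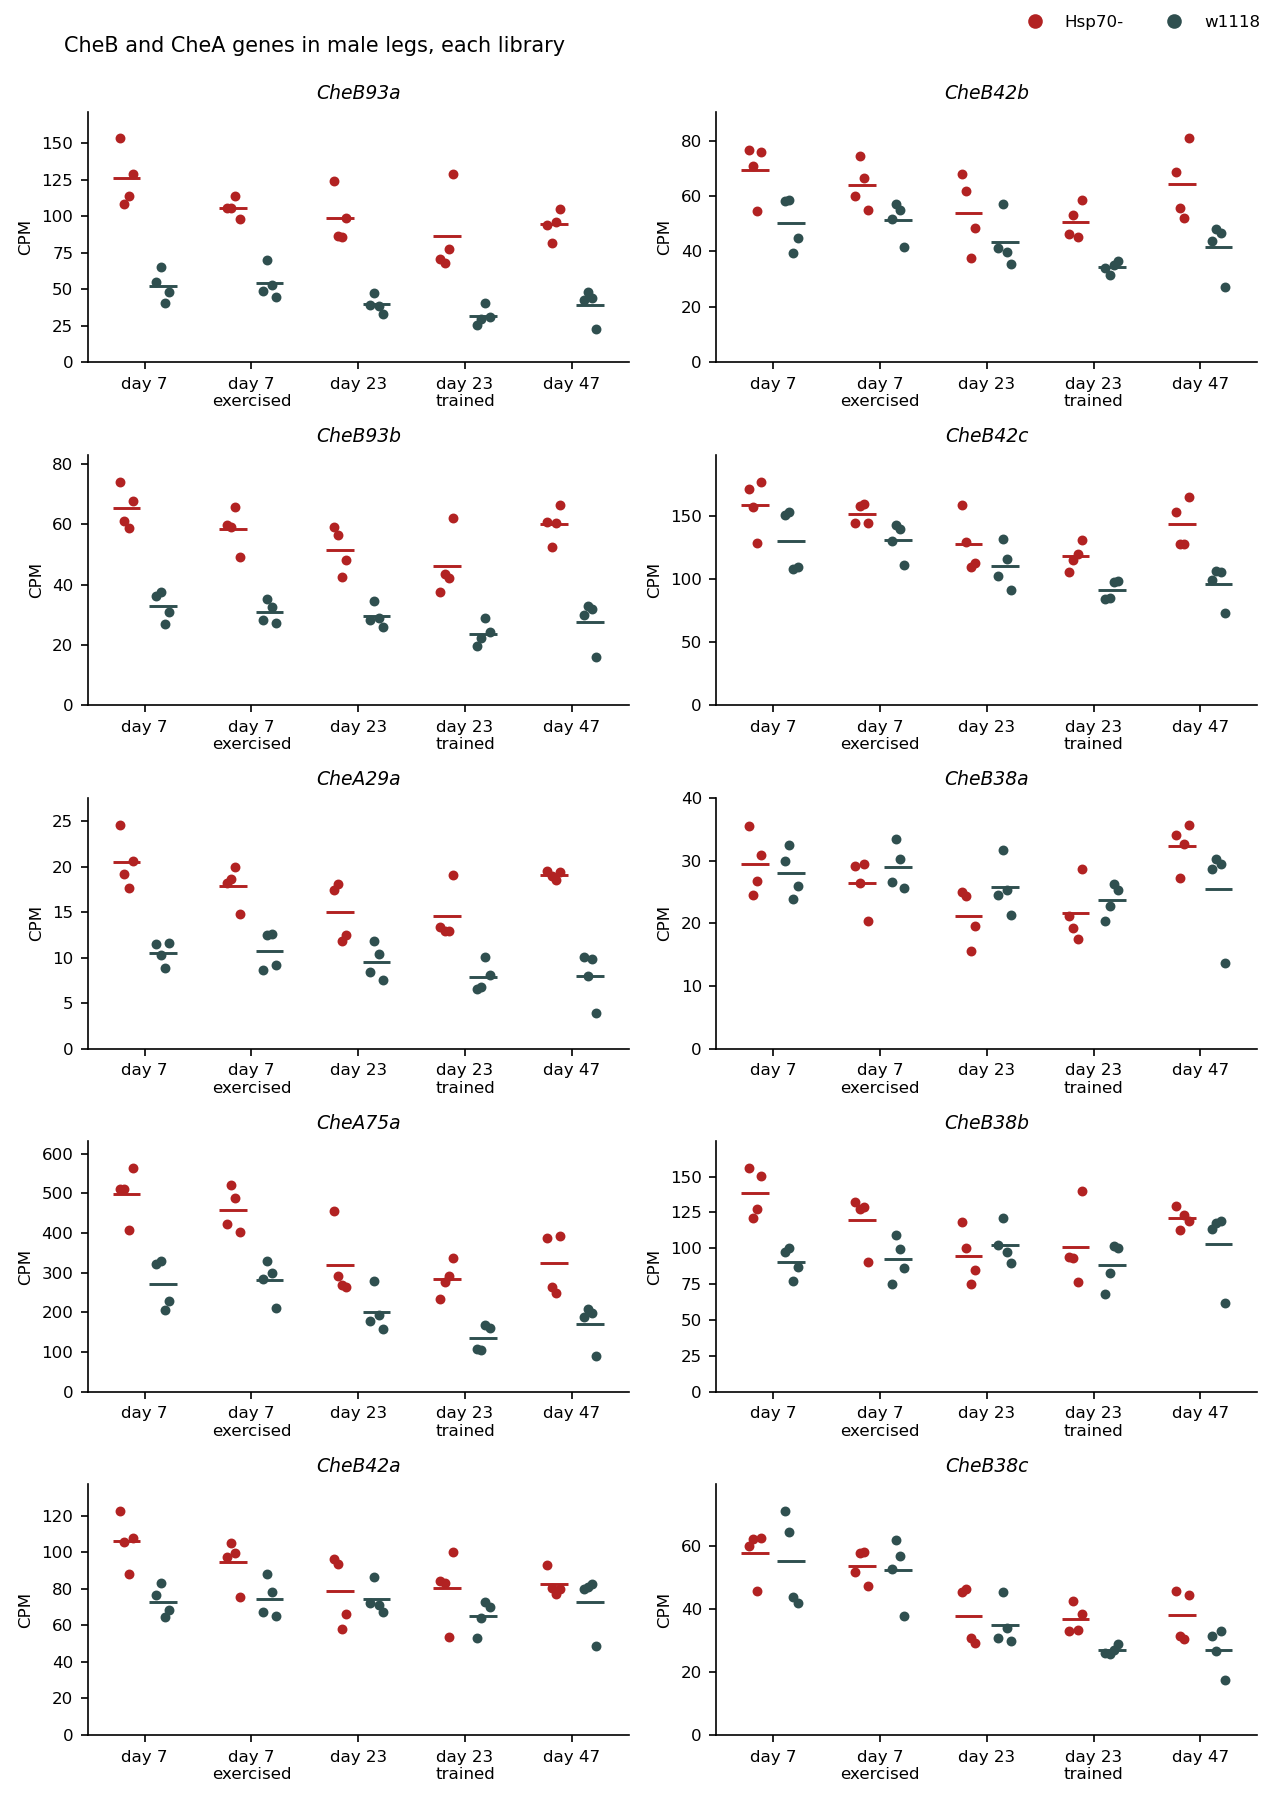
CPM of the 10 genes in every library, by condition, with Hsp70- left of w1118. Each point is 1 library and bars are means of 4. CheB93a, CheB93b and CheA29a do not overlap between strains in any condition, while CheB38a overlaps in all 5.

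CheB93a had the largest strain difference of the 10. At day 7 it had 153, 108, 114 and 128 CPM in Hsp70- legs, against 55.0, 65.5, 40.8 and 48.3 CPM in w1118 legs. At day 23 it had 124, 86.4, 86.0 and 98.9 CPM in Hsp70-, against 39.5, 47.5, 38.2 and 33.2 CPM in w1118. At day 47 it had 94.1, 81.8, 96.1 and 105 CPM in Hsp70-, against 42.7, 48.1, 44.1 and 22.4 CPM in w1118. Every Hsp70- library lay above every w1118 library of the same age. Exercised flies had 97.7 to 114 CPM in Hsp70- and 44.5 to 70.2 CPM in w1118, and trained flies 67.8 to 129 CPM in Hsp70- and 25.7 to 40.3 CPM in w1118. Averaged over the 5 conditions CheB93a was 2.38-fold higher (log2 fold change 1.25, SE 0.09, edgeR adjusted p 2.9e-13).

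CheB93b, its neighbour, was likewise higher in Hsp70-, at a lower level. At day 7 it had 74.1, 60.9, 58.8 and 67.8 CPM in Hsp70-, against 36.1, 37.6, 27.0 and 30.8 CPM in w1118. At day 23 it had 58.9, 56.4, 42.5 and 48.2 CPM in Hsp70-, against 28.2, 34.6, 28.9 and 26.0 CPM in w1118. At day 47 it had 60.9, 52.3, 60.3 and 66.3 CPM in Hsp70-, against 30.1, 32.9, 32.0 and 15.9 CPM in w1118. The strains did not overlap at any age, nor in exercised or trained flies. CheB93b was 1.94-fold higher over the 5 conditions (log2 fold change 0.96, SE 0.08, edgeR adjusted p 2.59e-12). Both CheB93 genes remained called in all 5 conditions under each of the alternatives run, including without the 8 libraries with markers of other organs.

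CheA29a had the lowest level of the 10 and one of the clearest separations. At day 7 it had 24.6, 19.2, 17.7 and 20.6 CPM in Hsp70-, against 11.5, 10.3, 8.85 and 11.6 CPM in w1118. At day 47 it had 19.5, 18.9, 18.5 and 19.4 CPM in Hsp70-, against 10.0, 8.01, 9.80 and 3.95 CPM in w1118. At day 23 the groups came closest, and the lowest Hsp70- library and the highest w1118 library both read 11.8 CPM, the w1118 one just below. CheA29a was 1.86-fold higher over the 5 conditions (log2 fold change 0.90, SE 0.09, edgeR adjusted p 8.36e-10). Its log2 fold change at day 23 was 0.65 (edgeR adjusted p 0.0266), and the call was lost without replicate 1 or 2 of Hsp70- or replicate 1 or 4 of w1118 (adjusted p 0.0816 to 0.105), or with only the compared groups in the fit (0.078). In exercised flies the call was lost without the 8 libraries with markers of other organs (log2 fold change 0.715, adjusted p 0.128).

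CheA75a, the most abundant of the 10, was also higher in Hsp70-. At day 7 it had 511, 510, 408 and 564 CPM in Hsp70-, against 321, 328, 207 and 230 CPM in w1118. At day 23 it had 454, 292, 269 and 265 CPM in Hsp70-, against 177, 280, 194 and 159 CPM in w1118, and 1 w1118 library overlapped. At day 47 it had 388, 265, 248 and 392 CPM in Hsp70-, against 188, 209, 199 and 91.0 CPM in w1118, with no overlap. Over the 5 conditions it was 1.8-fold higher (log2 fold change 0.85, SE 0.10, edgeR adjusted p 3.1e-08).

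The call of CheA75a depended on single libraries in 2 conditions. At day 23 (log2 fold change 0.66, edgeR adjusted p 0.0433) it was lost without replicate 1 or 2 of Hsp70- or replicate 1, 3 or 4 of w1118, with an adjusted p of 0.239 without Hsp70- replicate 1. In exercised flies (log2 fold change 0.71, adjusted p 0.0292) it was lost without replicate 2 or 3 of Hsp70- or replicate 1 or 4 of w1118 (adjusted p 0.0595 to 0.0838). Without the 8 libraries with markers of other organs its edgeR adjusted p was 0.107 at day 7, 0.0658 at day 23 and 0.135 in exercised flies. The log2 fold changes of that fit were 0.76, 0.66 and 0.80 in that order. That fit also has fewer pools in some groups, and the part of this in lost calls was not tested. With only the compared groups in the fit the edgeR adjusted p of CheA75a was 0.124 at day 23 and 0.0637 at day 47. Without a filter it was 0.0663 at day 23 and 0.0564 in exercised flies. Without the libraries with testis markers it was 0.0589 in exercised flies.

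Among the CheB42 genes, CheB42b had the largest difference. At day 47 it had 68.8, 55.7, 52.2 and 80.9 CPM in Hsp70-, against 43.9, 48.2, 46.8 and 27.1 CPM in w1118. These groups did not overlap (log2 fold change 0.63, SE 0.18, edgeR adjusted p 0.0122). The call was lost without Hsp70- replicate 4 (adjusted p 0.0753), without w1118 replicate 4 (0.0708) or with only the compared groups in the fit (0.0819). In trained flies CheB42b had 45.1 to 58.6 CPM in Hsp70- and 31.7 to 36.4 CPM in w1118 (log2 fold change 0.56, edgeR adjusted p 0.0320). That call was lost without any 1 of 6 libraries, replicates 2 and 4 of Hsp70- and replicates 1 to 4 of w1118 (adjusted p 0.0526 to 0.107). It was also lost without the libraries with testis markers (edgeR adjusted p 0.0691). At day 7 CheB42b was called by edgeR with Hsp70- replicate 3 left out (adjusted p 0.0300, against 0.0572 with it). With all libraries it was called by edgeR with RLE size factors (adjusted p 0.0466) or a replicate block (0.0413), and by DESeq2 (0.0365).

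CheB42a, the gene with the courtship role, separated the strains at day 7. It had 122, 106, 88.0 and 108 CPM in Hsp70-, against 76.3, 82.9, 64.6 and 68.2 CPM in w1118 (log2 fold change 0.54, SE 0.17, edgeR adjusted p 0.0244). The call was lost without replicate 1 or 2 of Hsp70- or replicate 3 or 4 of w1118 (adjusted p 0.0514 to 0.0746). At day 23 CheB42a averaged 78.6 ± 19.2 CPM in Hsp70- and 74.2 ± 8.32 CPM in w1118 (SD, n = 4 each), and the groups overlapped there and at day 47. CheB42c was called at day 47, with 153, 128, 128 and 166 CPM in Hsp70-, against 99.9, 107, 106 and 72.9 CPM in w1118 (log2 fold change 0.58, SE 0.14, edgeR adjusted p 0.00258). Over the 5 conditions the log2 fold changes were 0.46 for CheB42b, 0.33 for CheB42c and 0.29 for CheB42a, all 3 called (edgeR adjusted p 2.27e-05, 4.69e-05 and 0.00266).

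The CheB38 genes differed least between the strains. CheB38b was called at day 7, with 156, 121, 127 and 150 CPM in Hsp70-, against 97.6, 100, 77.1 and 86.8 CPM in w1118. Those groups did not overlap (log2 fold change 0.61, SE 0.18, edgeR adjusted p 0.0161), and the call was lost without w1118 replicate 3 (adjusted p 0.0607). At day 23 CheB38b overlapped, with a mean of 94.7 ± 18.9 CPM in Hsp70- and 103 ± 13.4 CPM in w1118 (SD, n = 4 each). CheB38a was called in 0 of the 5 conditions, and its mean log2 fold change of -0.03 had a 95% interval of -0.20 to 0.15 (edgeR adjusted p 0.834).

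CheB38c was called in 0 of the 5 conditions singly in the main fit and was called higher over their mean (log2 fold change 0.23, SE 0.09, edgeR adjusted p 0.0345). Singly it was called at day 47 with a replicate block (edgeR adjusted p 0.0487) and by DESeq2 (0.043). In trained flies it was called with only the compared groups in the fit (edgeR adjusted p 0.0144). The call over the mean was lost without a filter (edgeR adjusted p 0.0702) or without the libraries with testis markers (0.0669). With 1 library left out in turn, CheB38c missed the threshold over the mean in 13 of 40 fits (adjusted p 0.0512 to 0.0621). In Hsp70- these were day 7 replicate 4, exercised replicate 3, day 23 replicates 1 and 2, trained replicate 2, and day 47 replicates 1 and 4. In w1118 they were day 7 replicates 3 and 4, exercised replicate 4, day 23 replicates 1 and 4, and day 47 replicate 4. Without the 8 libraries with markers of other organs, CheB42a at day 7 had an edgeR adjusted p of 0.151 (log2 fold change 0.53). CheB38b at day 7 had 0.0684 (0.65), and CheB42b in trained flies had 0.181 (0.59). Over the mean the adjusted p was 0.0515 for CheB42a (0.25), 0.0615 for CheB38b (0.24) and 0.153 for CheB38c (0.21).

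Whether genes of 1 cluster moved together was tested on the log2 ratio of neighbours in each library. Library labels were permuted within conditions for strain, and the 14 tests, added after the data had been seen, were adjusted together. The ratio of CheB93a to CheB93b averaged 0.71 ± 0.16 in Hsp70- and 0.41 ± 0.17 in w1118 on the log2 scale (SD, n = 20 each, permutation p 1e-05, the smallest that 100000 permutations can give, adjusted 7e-05). CheB93a thus differed by more than its neighbour. The ratio of CheB38b to CheB38a was higher in Hsp70- by 0.29 (adjusted permutation p 7e-05) and that of CheB38c to CheB38a by 0.26 (0.00238). CheB38c to CheB38b differed by -0.02 (0.923). In the CheB42 cluster the ratio of CheB42a to CheB42b was lower in Hsp70- by a log2 difference of -0.18 (adjusted permutation p 0.00562). The ratio of CheB42b to CheB42c was higher by 0.13 (0.0029), and CheB42a to CheB42c differed by -0.05 (0.574). CheB42c shares 58.3% of its exonic bases with mim, so ratios to CheB42c are uncertain.

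The strain difference extended over the rest of both families. All 10 other CheA and CheB genes were called higher in Hsp70- over the mean of the conditions, with a median log2 fold change of 1.08. The largest was CheA86a (1.73, SE 0.09, edgeR adjusted p 1.3e-16) and the smallest CheB98a (0.61, SE 0.08, 3.9e-07). On 3R, CheA86a lies 0.81 Mb and CheA87a 0.86 Mb from the nearest deleted Hsp70 gene, CheA84a 3.75 Mb and CheB98a 16.3 Mb. The part of this distance in the strain difference was not tested. The abundant CheA7a and CheA87a had log2 fold changes of 0.79 and 0.80. Of these 10 genes, 9 were called higher in all 5 conditions, and CheB98a in 4 of 5. Grouped by position, 13 of the 14 family genes outside the CheB38 and CheB42 clusters were called higher in all 5 conditions, and 0 of the 6 inside them. That grouping was made after the values were seen and was not tested.

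**Figure D3:**
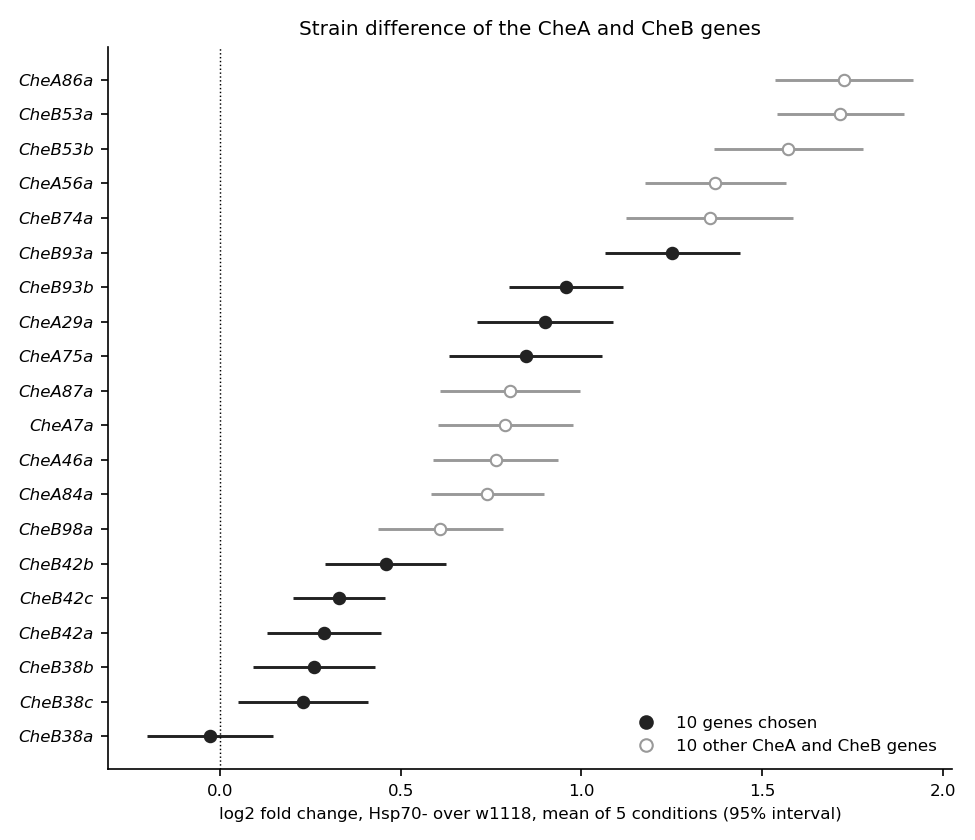
Log2 fold change of Hsp70- over w1118, averaged over 5 conditions, for the 20 CheA and CheB genes, with 95% intervals from edgeR. Filled points are the 10 genes described here and open points the 10 others. CheB38a is the gene whose interval spans 0, and the CheB42 and CheB38 genes form the low end.

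Listed genes that act beside the CheA and CheB proteins were called in both directions. Over the mean of the conditions 41.8% of all features were called, 21.1% higher and 20.7% lower. The counts of the receptor and support cell lists lay near that share. Of 19 listed pheromone and taste receptors and channels, 14 were tested, 3 were called higher over the mean of the conditions and 3 lower, with a median log2 fold change of 0.11. The channel subunit ppk29 was lower (-0.38, SE 0.07, edgeR adjusted p 3.4e-05), with 3.22 ± 0.51 CPM in Hsp70- and 4.19 ± 0.75 CPM in w1118 (SD, n = 20 each). The partner subunits ppk23 (-0.08, adjusted p 0.304) and ppk25 (0.14, 0.116) were not called. The taste receptors Gr64f (0.61), Ir52a (0.59) and the co-receptor Ir76b (0.31) were higher, and Ir52c (-0.29) and Ir52d (-0.77) lower, each at an edgeR adjusted p under 0.05. Of 13 support cell and lipid carrier genes, 12 were tested, 1 was called higher (Npc2f, 1.22) and 4 lower.

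The odorant-binding protein gene lush moved opposite to the CheA and CheB genes. It had 0.827 to 1.76 CPM in the 20 Hsp70- libraries and 8.03 to 23.0 CPM in the 20 w1118 libraries, with no overlap, as for 1.31% of all features. It was called lower in all 5 conditions, as were 3.3% of all features (mean log2 fold change -3.51, SE 0.12, edgeR adjusted p 7.7e-22). The CD36-related genes Snmp1 (-0.32) and Snmp2 (-0.27) and the lipid carrier Npc2b (-0.22) were also called lower over the mean. Of 10 neuron genes 1 was called, ChAT, the enzyme of acetylcholine synthesis (-0.32), where 41.8% of all features were called. Of 10 sex determination genes 4 were called higher, where 21.1% of all features were. These were Sxl (0.09), tra (0.23), tra2 (0.14) and the yolk protein gene Yp3 (1.51). The sex-specific regulators doublesex (dsx, -0.10, edgeR adjusted p 0.407) and fruitless (fru, -0.005, 0.967) were not called.

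Markers of some other organs also moved with strain. Over the mean of the conditions 0 of 15 testis and 0 of 16 accessory gland markers tested were called. In single conditions these 2 lists were called in both directions. Testis markers had 13 called higher at day 7, and 1 higher and 8 lower in exercised flies. Accessory gland markers had 16 called lower in exercised flies and 15 higher in trained flies. Over the mean of the conditions 41.8% of all features were called, 21.1% higher. All 14 eye markers (each with a median of at least 1 CPM) were called higher in Hsp70- over the mean of the conditions, with a summed level of 203 to 14100 CPM in Hsp70- and 196 to 1320 CPM in w1118. Of 16 gut markers 10 were called higher and 0 lower (217 to 13600 CPM in Hsp70-, 72.5 to 28800 CPM in w1118). This did not hold in each condition. In exercised flies 13 gut markers were called higher (8.95% of all features), at day 23 it was 1 (8.78%), and at day 7 and in trained flies 0. At day 47 the gut markers had 0 called higher and 3 lower (9.49% of all features lower), with a median log2 fold change of -1.48. Of 10 leg muscle markers 5 were called higher and 1 lower (17000 to 28200 CPM in Hsp70-, 14100 to 31100 CPM in w1118), and of 8 fat body markers tested 1 was called higher and 3 lower (2900 to 11000 CPM in Hsp70-, 3090 to 11800 CPM in w1118). Of 10 neuron genes 0 were called higher and 1 lower, and their sum ran from 887 to 2230 CPM in Hsp70- and from 711 to 1760 CPM in w1118. The part of eye, gut, muscle, fat body or nerve RNA in the strain difference was not tested. The CheB93 genes were called as higher in all 5 conditions without the 8 libraries too, and the calls lost without them are given above with each gene.

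Age was compared within each strain, between untreated flies at 7, 23 and 47 days. CheB38c fell with age in both strains, CheA75a was lower at day 47 than at day 7 in both, and most of the 10 genes were not called. Between day 47 and day 7, 2 of the 10 genes were called lower and 0 higher in Hsp70- (28.9% of all features were called, 14.9% lower), and 3 were called lower and 0 higher in w1118 (37.6%, 18.5% lower). Day 47 lay below day 7 without overlap for 2 of the 10 genes in Hsp70- (12.9% of all features) and 2 in w1118 (17%). Between day 23 and day 7 it was 2 in Hsp70- (17.3%, 9.89% lower) and 1 in w1118 (11.1%, 6.21% lower), all lower. Between day 47 and day 23 edgeR called 0 in Hsp70- (3.6%, with 2050 features at an unadjusted p under 0.05) and 0 in w1118 (13.4%, with 3346 such features). DESeq2 called 1 in Hsp70- (CheB38a, higher) and 0 in w1118. The difference of the day 47 over day 7 change between the strains was called for 0 of the 10 genes by edgeR (1.64% of all features, 2540 at an unadjusted p under 0.05) and 0 by DESeq2. Without the 8 libraries with markers of other organs, 0 of the 10 genes were called in Hsp70- between day 47 and day 7. Those libraries include Hsp70- day 7 replicates 2 and 4. The edgeR adjusted p was 0.228 for CheB38c (log2 fold change -0.48) and 0.265 for CheA75a (-0.51). Tissue markers moved with age too. Between day 47 and day 7, edgeR called 7 of 10 leg muscle markers lower and 1 higher in Hsp70-, and 9 lower and 0 higher in w1118. Of 10 neuron genes 4 were called lower in Hsp70- and 9 in w1118, and of 16 gut markers 4 were called higher in Hsp70- and 14 in w1118. In Hsp70- the summed level of leg muscle markers was 19600 to 24300 CPM at day 47 and 21500 to 28200 CPM at day 7, and that of gut markers 3600 to 11500 CPM at day 47 and 217 to 1910 CPM at day 7. In w1118 the leg muscle sum was 14100 to 15400 CPM at day 47 and 23200 to 31100 CPM at day 7, and the gut sum 2710 to 28800 CPM at day 47 and 114 to 2000 CPM at day 7. The part of these tissues in the lower levels of CheB38c, CheA75a and CheB42c was not tested. The libraries of day 47 were also the deepest, and counts thinned to the smallest library changed 0 calls of the 10 genes. The TMM scaling factors of edgeR split by age too, at 0.804 to 0.976 at day 7 and 1.08 to 1.16 at day 47. The part of this scaling in the lower levels was not tested.

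CheB38c was lower at both later ages. At day 7 it had 60.1, 62.5, 45.7 and 62.7 CPM in Hsp70- legs and 71.2, 64.4, 44.0 and 42.1 CPM in w1118 legs. At day 23 it had 45.5, 46.3, 31.0 and 29.2 CPM in Hsp70- and 30.8, 45.5, 34.0 and 29.8 CPM in w1118. At day 47 it had 45.7, 31.3, 30.6 and 44.5 CPM in Hsp70- and 31.4, 26.7, 33.0 and 17.4 CPM in w1118. In w1118 all day 47 libraries lay below all day 7 libraries, and in Hsp70- the highest of day 47 reached the lowest of day 7. Day 47 over day 7, the log2 fold change was -0.60 in Hsp70- (SE 0.20, edgeR adjusted p 0.0224) and -1.03 in w1118 (SE 0.20, 1.2e-04). The w1118 call held under all 16 alternatives. The Hsp70- call was lost without day 7 replicate 2 or 4 or day 47 replicate 2 or 3 (adjusted p 0.0505 to 0.0879).

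By day 23 the log2 fold change of CheB38c over day 7 was -0.60 in Hsp70- (edgeR adjusted p 0.0369) and -0.66 in w1118 (0.0263). The Hsp70- call was lost without day 7 replicates 1, 2 or 4 or day 23 replicates 3 or 4 (adjusted p 0.0551 to 0.116), and the w1118 call without day 7 replicates 1 or 2 or day 23 replicates 1, 3 or 4 (0.0643 to 0.132). CheB38b was also called lower at day 23 in Hsp70- (-0.55, SE 0.18, edgeR adjusted p 0.0407). That call was lost without day 7 replicates 1, 2 or 4 or day 23 replicates 2, 3 or 4 (adjusted p 0.0586 to 0.111). Without Hsp70- day 7 replicate 3 or day 23 replicate 1, CheB42a, CheB42c and CheA75a were called lower as well (adjusted p 0.0187 to 0.0493).

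**Figure D4:**
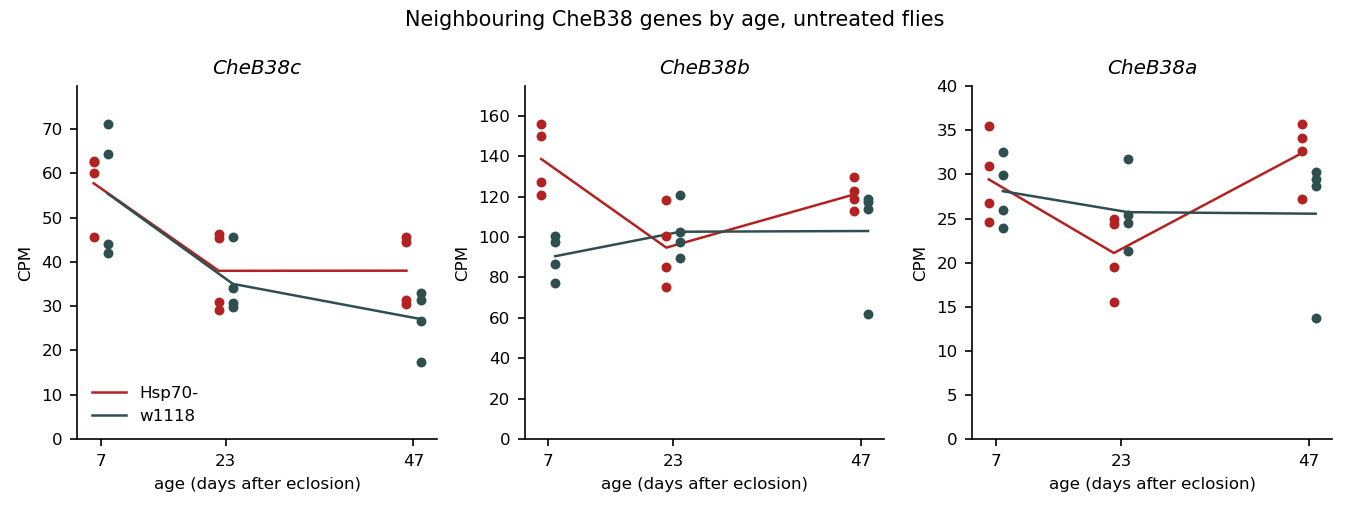
CPM of the neighbouring genes CheB38c, CheB38b and CheB38a in untreated flies at 7, 23 and 47 days after eclosion. Points are single libraries, drawn slightly left (Hsp70-) or right (w1118) of the age, and lines join the means of 4. CheB38c is lower at day 47 than at day 7 in both strains, and the libraries of its neighbours overlap between those ages.

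Between day 47 and day 7 CheB38c differed by more than its neighbours. The log2 ratio of CheB38c to CheB38a was 0.01 ± 0.21 at day 47 and 0.82 ± 0.24 at day 7 (SD, n = 8 each, both strains). It differed by -0.80 (exact permutation test within strains over 4900 arrangements, two-sided p 4.1e-04, adjusted 0.00143), and CheB38c to CheB38b also differed by -0.80 (adjusted exact permutation p 0.00229). CheB38b to CheB38a did not differ beyond its spread (0.974). The ratio of CheB93a to CheB93b was lower at day 47 by a log2 difference of -0.22 (adjusted exact permutation p 0.00143). The 3 ratios within the CheB42 cluster were not separated by age (adjusted exact permutation p 0.168 to 0.958).

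CheA75a was lower at day 47 than at day 7, with 248 to 392 CPM against 408 to 564 CPM in Hsp70- and 91.0 to 209 CPM against 207 to 328 CPM in w1118. Its log2 fold change was -0.62 in Hsp70- (SE 0.23, edgeR adjusted p 0.0409) and -0.66 in w1118 (SE 0.23, 0.0234). The Hsp70- call was lost without day 7 replicates 1, 2 or 4 or day 47 replicates 2 or 3 (adjusted p 0.0668 to 0.134). The w1118 call was lost without day 7 replicates 1 or 2 or day 47 replicate 4 (0.0795 to 0.124). CheB42c was called lower in w1118 (-0.44, SE 0.14, edgeR adjusted p 0.0125), and the call was lost without the same 3 libraries (0.0616 to 0.0767). In w1118 its day 47 libraries (72.9 to 107 CPM) lay below its day 7 libraries (108 to 153 CPM).

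One w1118 library weighed on the age comparison. Day 47 replicate 4 was the lowest of its group for all 10 genes, with 375 CPM over the 10 genes together, against 668 to 709 CPM in its 3 fellows. It also had the highest summed gut markers of the 40 libraries (28800 CPM) and 1450 CPM of neuron genes, against 739 to 860 CPM in the other 3. The part of gut or nerve RNA in its low values was not tested. Exercised Hsp70- replicate 4 and w1118 day 23 replicate 4 were likewise the lowest of their groups for all 10 genes, and w1118 day 23 replicate 2 was the highest for all 10.

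Exercise for 2 h at day 7 was called for 0 of the 10 genes in Hsp70- (0.0464% of all features) and 0 in w1118 (0.402%). The log2 fold changes of exercised over untreated flies were -0.25 to -0.07 in Hsp70- and -0.09 to 0.05 in w1118. At an unadjusted p under 0.05 edgeR had 1978 features in Hsp70- and 2132 in w1118, and DESeq2 also called 0 of the 10 genes. Training for 19 days was called for 0 of the 10 genes in Hsp70- (0.0464% of all features) and 0 in w1118 (0%). The log2 fold changes of trained over untrained flies were -0.20 to 0.09 in Hsp70- and -0.58 to -0.12 in w1118, where all 10 were below 0. CheA75a had the lowest of these, with 108, 105, 168 and 160 CPM in trained w1118 flies, against 177, 280, 194 and 159 CPM in untrained ones, and the groups overlapped. For CheB38c the trained w1118 libraries (25.7 to 29.0 CPM) lay below the untrained ones (29.8 to 45.5 CPM), as did 1.02% of all features. At an unadjusted p under 0.05 edgeR had 680 features in Hsp70- and 837 in w1118, and DESeq2 called 0 of the 10 genes in either.

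Within a group the 10 genes varied together. As a description, the deviations from the group means correlated at r of 0.59 to 0.94 over the 45 gene pairs (median 0.82, 40 libraries), where the points share each library's tissue makeup and scaling. The coefficient of variation within a group had a median of 13.4% (CheB42c) to 23.4% (CheA75a). Over all 40 libraries the highest level was 2.44 times the lowest for CheB42c and 6.83 times for CheB93a.

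The features most like each gene over the 40 libraries, by Pearson's r of log2(CPM + 0.5), were mostly family members. Of the 30 places (3 per gene), 19 were held by CheA or CheB genes. CheB93a was most like CheB93b (r 0.975), CheB74a (0.974) and CheA86a (0.968), and CheA29a most like CheB93b (0.968). CheA75a was most like CheA7a (0.987) and CG13428 (0.975), and CheB42a most like CheB38b (0.912). The 3 features nearest to CheB38c were not family genes: Loxl2 (0.907) and the muscle genes Mlc1 (0.903) and TpnC41C (0.897). Its r to the member CheB42c was 0.876. The nearest to CheB38a were Tsp74F (0.80) and Fis1 (0.788), the lowest such values of the 10. To the mean standardized level of the 10 genes, CG13428 (0.959), CheA87a (0.951), GstE11 (0.949), CheA46a (0.943) and CG14502 (0.937) were closest. These values describe 40 libraries that share strain, age and depth, and no test was made on them.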

How the data were processed

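The authors deposited a table of raw read counts per feature, with no normalization, for 40 leg RNA libraries made with a strand-specific kit, per the labels' protocols. The submitters' processing notes name HISAT2 2.1.0, kallisto 0.44.0 and the build BDGP6; the counting tool and annotation are not given in the sources used here. All 40 columns matched a sample title, and 0 were left unmapped.

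From the counts, edgeR 4.0.16 (R 4.3.3) fitted 1 mean per group over all 40 libraries (30 residual degrees of freedom), with TMM scaling and a filter by group that kept 12939 features. Benjamini-Hochberg adjustment ran over all kept features, separately for 17 comparisons, and a call needed an adjusted p-value under 0.05. The standard error is the absolute log2 fold change over the square root of F. CPM used scaled library sizes. RPKM divided CPM by exonic length (Ensembl BDGP6.54). Replicates were not copies of each other (chi-square per degree of freedom 23.7 to 314 over 60 pairs), and the precision of a level is set by the spread between 4 pools. The fit was tested on simulated data. Alternatives were RLE size factors, DESeq2 1.42.0, no filter, the compared groups alone, a replicate block, thinned counts, and leaving out libraries. The fit without 8 libraries was added after seeing the data. Named genes were the 10 members, listed genes called beside them (at most 6 a list by mean level), ppk23, ppk25, ppk29, dsx and fru, and those most correlated with a member. Members, lists and tests were chosen with earlier results of these data known.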

Additional observations from a re-analysis of the deposited data

Results flagged for a closer look

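In 9 of the 100 sets of 4 libraries (10 genes in 10 groups), 1 library stood apart from the other 3 by more than Dixon's 95% limit, which chance gives for about 1 set in 20. Of the 9, 4 were the same library, w1118 day 47 replicate 4. It had the lowest CheB42a (48.6 CPM, others 79.7 to 82.5), CheB38a (13.7 CPM, others 28.7 to 30.3), CheB38b (61.7 CPM, others 114 to 119) and CheB93b (15.9 CPM, others 30.1 to 32.9). Trained Hsp70- replicate 4 had the highest CheB93a (129 CPM, others 67.8 to 77.8) and CheA29a (19.0 CPM, others 12.9 to 13.3). Exercised Hsp70- replicate 4 had the lowest CheB38b (90.1 CPM, others 127 to 132). Hsp70- day 7 replicate 3 had the lowest CheB38c (45.7 CPM, others 60.1 to 62.7), and Hsp70- day 23 replicate 1 the highest CheA75a (454 CPM, others 265 to 292).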

How the results depend on the processing

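No called value changed sign under the alternatives run. Of 1350 values of single genes under alternatives other than leaving out 1 library, 1296 kept their side of the threshold, 39 calls were lost and 15 gained, and of 1760 values with 1 library left out, 1683 kept it, 70 were lost and 7 gained. The number of the 10 genes called for strain fell to 3 at day 7 and 2 in exercised flies without the 8 libraries with testis, accessory gland or eye markers. Over the mean the calls of CheB42a, CheB38b and CheB38c were lost without the 8 libraries. With the compared groups alone the number was 2 at day 23 and 4 at day 47. In trained flies the compared groups alone added calls of CheB42c and CheB38c. For age without a filter the counts were 0 (Hsp70-, day 23 over 7), 0 (Hsp70-, 47 over 7), 0 (w1118, 23 over 7) and 1 (w1118, 47 over 7), and with the compared groups alone 0, 4, 0 and 1 in that order. In Hsp70-, day 23 over 7 gave 1 without libraries with testis markers, 0 without all 8, and 5 with DESeq2, day 47 over 23 gave 1 with DESeq2, and day 47 over 7 gave 0 without the libraries with testis markers and 0 without all 8. The cause was not tested. With 1 library left out, the counts for strain ran from 4 to 7 at day 7, 2 to 4 at day 23, 5 to 6 at day 47, 3 to 4 in exercised flies, 4 to 5 in trained flies and 8 to 9 over the mean. For age they ran from 0 to 5 (23 over 7) and 0 to 2 (47 over 7) in Hsp70-, and from 0 to 1 and 1 to 3 in w1118. The fit of the compared groups alone was not run for the mean of 5 conditions, which uses all groups.

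Replicate numbers were not used to pair samples in the main fit, since in no comparison did all 4 same-numbered pairs correlate above 0.1. In training of w1118, 3 of 4 pairs did, with r up to 0.572, and in training of Hsp70- r reached 0.592. Pairs with different numbers were not compared, so this check cannot exclude a pairing. With the replicate number as a block, 7 genes were called for strain at day 7 and 7 at day 47, and the other counts kept their main values. Groups of 4 pools limit the differences that can be called.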
